A study of Homo sapiens with 4 samples.

Results

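The genes described here are 10 members of the heterogeneous nuclear ribonucleoprotein (HNRNP) family, out of 27685 genes measured, in HT-29 cells with and without Myc-TRIM40. They are HNRNPA0, HNRNPA1, HNRNPA1L2, HNRNPA2B1, HNRNPA3, HNRNPC, HNRNPD, HNRNPK, HNRNPM and HNRNPU, found by gene symbol, and their 34 RefSeq transcripts (of 63714) were summed per gene. HNRNPA1L2 was chosen by its measured change: its ratio of FPKM + 1 between Myc-TRIM40 and control was at least 1.5-fold lower in both experiments. FPKM is a fragment count per transcript length and library size. The values of HNRNPA1L2 in that contrast are therefore given as a description, without a test. The other 9 were listed by name as its relatives.

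RNA was sequenced from HT-29, a human colon cancer cell line, stably carrying either a control vector (labelled WT) or TRIM40 with an N-terminal Myc tag (labelled TRIM40 overexpression). Both groups received no treatment, and TRIM40 is a member of the TRIM family of RING-type E3 ubiquitin ligases. Cells were virally transduced and selected with puromycin. Human TRIM40 was carried in pMSCV, a murine stem cell virus vector, in which the viral long terminal repeat drives the insert. Whether each line was 1 clone is not given in the sources used here. Each of 2 independent experiments gave 1 control library and 1 Myc-TRIM40 library, so every condition had 2 libraries. Library totals lay between 60954602 and 67424698 reads, and the 10 genes together took between 0.580% and 0.721% of a library. TRIM40 was listed at 0 reads in both controls, and with Myc-TRIM40 at 272646 reads in experiment 1 and 110665 in experiment 2. Of 10 colonic epithelial markers, 9 were above 1 FPKM in every library, with KRT8 the most abundant and CDX1 between 0.323 and 0.414 FPKM. All 6 markers of other cell types were below 1 FPKM, with CD3E listed at 0.

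Proteins of the HNRNP family coat nascent pre-mRNA in the nucleus, where they influence splice site choice, polyadenylation, export and stability of transcripts. Most carry RNA recognition motifs, whereas HNRNPK binds RNA through KH domains. HNRNPA1 is a founding member of the A/B group, and its messenger RNA has been copied back into the genome many times. HNRNPA1L2 is one such retrocopy that kept an open reading frame.

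The files place HNRNPA1L2 (gene 144983) at chr13:53191605-53217919 and HNRNPA1 (gene 3178) at chr12:54674474-54680872 of hg19. No other gene of the files overlapped HNRNPA1L2. In the GENCODE release 29 transcripts (GRCh38), the coding sequence of HNRNPA1L2 lay in 1 exon and that of HNRNPA1 in 9 exons. Both coding sequences were 960 bases long and aligned without a gap, with 15 differences and 98.4% identity. The window printed here for both genes holds 5 of the 15 differences and is shown because coding reads of these genes can be told apart only where they span such a base. Capitals mark the bases that differ, and positions are counted from 1 at the first base of the start codon.
HNRNPA1, coding bases 541 to 720: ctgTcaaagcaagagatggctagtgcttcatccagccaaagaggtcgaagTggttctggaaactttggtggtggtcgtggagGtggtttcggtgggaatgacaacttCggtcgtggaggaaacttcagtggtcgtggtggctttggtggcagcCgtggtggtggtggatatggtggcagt
HNRNPA1L2, coding bases 541 to 720: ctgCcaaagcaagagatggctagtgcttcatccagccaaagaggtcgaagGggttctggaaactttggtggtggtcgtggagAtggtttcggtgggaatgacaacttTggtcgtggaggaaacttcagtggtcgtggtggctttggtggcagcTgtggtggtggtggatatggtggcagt

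With the base of HNRNPA1 first and that of HNRNPA1L2 last, the 5 differences in this window were T544C, T591G, G623A, C648T and C694T. The longest stretch without a difference between the coding sequences ran over 174 bases. Of 861 windows of 100 coding bases, 98 (11.4%) were identical between both genes. Over the whole GENCODE transcript of HNRNPA1L2, which is 1372 bases long, 31.6% of 100-base windows also occurred in transcripts of other genes, and 22.4% occurred in HNRNPA1. The same share was 56.6% for HNRNPA1, 12.3% for HNRNPA3, 12.1% for HNRNPC and 0 for the other 6 genes. At 50 bases the shares were 58.5% for HNRNPA1L2, 67.4% for HNRNPA1, 36.7% for HNRNPC, 17.5% for HNRNPA3 and 14.8% for HNRNPK, and below 1% for the other 5. At 100 bases, the shared windows of HNRNPA1L2 fell in 13 other genes, most often HNRNPA1 (285 of 402). Those of HNRNPA1 fell in 10 other genes, most often HNRNPA1P48 (569 of 986). Reads of HNRNPA1 and HNRNPA1L2 could thus be divided by the authors' estimation between them and with further genes. Their separate values carry that uncertainty, and the sums given below do not take in HNRNPA1P48.

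HNRNPA1L2 was lower with Myc-TRIM40 in both experiments. In experiment 1 the control held 2178 reads of it and the Myc-TRIM40 library 732, and in experiment 2 these were 2979 and 941 reads. Less RNA per cell and fewer cells expressing the gene cannot be told apart in such bulk libraries. Per length, this was 15.3 and 5.16 FPKM in experiment 1 and 18.9 and 6.50 FPKM in experiment 2. The groups did not overlap, since the lower control level was above both Myc-TRIM40 levels. The gene was chosen for its change in these libraries, so this separation is a description only. The Myc-TRIM40 level was 33.8% of the control level in experiment 1 and 34.5% in experiment 2. The log2 ratio of FPKM + 1 was -1.40 in each experiment, whereas the controls of both experiments differed from each other by 0.29 on this scale. Scaled by library size with TMM factors (trimmed mean of M-values, which align the bulk of genes between libraries), the log2 ratios of reads were -1.61 and -1.68, with an SD of 0.05 (n = 2 experiments). The log2 fold change fitted by edgeR was -1.64. Among the 10 genes, the member nearest to it outside the 1.5-fold threshold was HNRNPA1, whose smaller change was -0.19 on the FPKM + 1 scale.

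**Figure D1:**
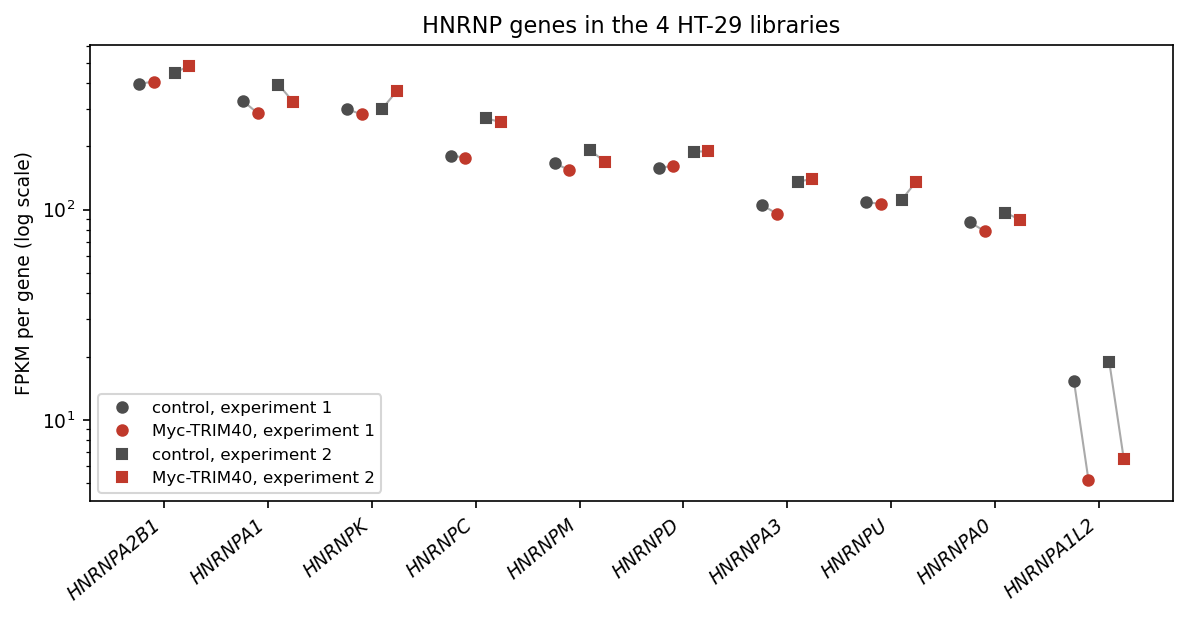
FPKM per gene (log axis) for each of the 10 HNRNP genes, ordered by mean control level, with circles for experiment 1, squares for experiment 2, grey for control and red for Myc-TRIM40. Lines join the libraries of 1 experiment; HNRNPA1L2 lies between 5.16 and 18.9 FPKM, below all other members, and is the gene with a steep line in both experiments.

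Both HNRNPA1L2 transcripts in the files were lower. NM_001011724, with 2365 bases, had 892 reads in control and 192 with Myc-TRIM40 in experiment 1, then 1151 and 195 in experiment 2. NM_001011725, with 2224 bases, had 1286 and 540 reads, then 1828 and 746. NM_001011724 held 39.5% and 37.2% of the gene's FPKM in the controls, and 25.0% and 19.7% in the Myc-TRIM40 libraries. Its share was thus lower by 14.5 percentage points in experiment 1 and by 17.5 percentage points in experiment 2. The groups did not overlap, but 2 libraries against 2 cannot go below p = 0.333 in an exact two-sided permutation test. How many other transcripts separated in this way was not counted. These were the only 2 of the 34 member transcripts with a ratio of FPKM + 1 at least 1.5-fold lower in both experiments, and 0 were as much higher in both. Over all 63714 transcripts, some of them without reads, 339 (0.532%) were lower and 568 (0.891%) higher by that rule. The files give HNRNPA1L2 a span of 26315 bases and transcripts longer than the matched GENCODE transcript, so these transcripts hold sequence outside the 1372 bases compared above.

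HNRNPA1, an abundant splicing regulator that shuttles between nucleus and cytoplasm, was expressed at a far higher level than its retrocopy. Control and Myc-TRIM40 held 37350 and 32866 of its reads in experiment 1, against 49503 and 38150 in experiment 2. Its FPKM was 327.6 and 287.2 in experiment 1 and 393.1 and 325.9 in experiment 2. The groups overlapped in reads but not in FPKM, where the higher Myc-TRIM40 library lay just under the lower control. Myc-TRIM40 reached 87.7% of control in experiment 1 and 82.9% in experiment 2, and the controls differed by 0.26 in log2 FPKM + 1 against -0.19 and -0.27 for the contrast. The fitted log2 fold change of -0.31 (SE 0.19) did not pass the test (edgeR's quasi-likelihood test, Benjamini-Hochberg adjusted p = 0.888). All 3 HNRNPA1 transcripts kept more than 6% of the gene's FPKM in every library, and the share of NM_002136 differed between the controls themselves, at 27.0% in experiment 1 and 44.9% in experiment 2.

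The reads of HNRNPA1 and HNRNPA1L2 were summed, so that a read assigned to either counts once. Jointly, the controls had 39528 reads in experiment 1 and 52482 in experiment 2, and the Myc-TRIM40 libraries had 33598 and 39091. The joint log2 ratios of TMM-scaled reads were -0.27 and -0.44, and the fitted log2 fold change of the sum was -0.36. The sum holds the reads of HNRNPA1L2, so it is given as a description, without a test. The difference in reads not scaled by library size, Myc-TRIM40 minus control, was -1446 and -2038 for HNRNPA1L2, and -4484 and -11353 for HNRNPA1. Whether reads moved between the genes was not tested.

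HNRNPA1L2 held 5.51% of the joint reads in the control of experiment 1 (95% Wilson interval 5.29 to 5.74%) and 5.68% in that of experiment 2 (5.48 to 5.88%). In the Myc-TRIM40 libraries it held 2.18% (2.03 to 2.34%) and 2.41% (2.26 to 2.56%). The intervals cover counting error only, and neither the choice of HNRNPA1L2 for its change nor the estimated division of reads between the genes, so they are a description and no test. The controls lay closer to each other than to either Myc-TRIM40 library, and with 2 libraries against 2 an exact two-sided permutation test cannot go below p = 0.333.

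The files also list HNRNPA1P10, annotated as a pseudogene of HNRNPA1, at chr12:54674533-54678663, inside HNRNPA1. It held between 48.2% and 59.0% of the reads of HNRNPA1 and HNRNPA1P10 together. The controls held 35975 and 62168 reads of HNRNPA1P10, and the Myc-TRIM40 libraries 30609 and 54957. Reads over sequence that both annotations hold cannot be told apart between them, and how the authors' estimation divided such reads could not be checked here. With all 3 genes summed, the log2 ratios of TMM-scaled reads were -0.27 and -0.30 and the fitted log2 fold change was -0.29. The mean log2 ratio of this sum was -0.19 on FPKM + 1 and -0.06 on TPM + 1. HNRNPA1L2 then held 2.88% and 2.60% of the joint reads in the controls, and 1.14% and 1.00% in the Myc-TRIM40 libraries. The HNRNPA1P10 sum was chosen after seeing the data and is a description, without a test.

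**Figure D2:**
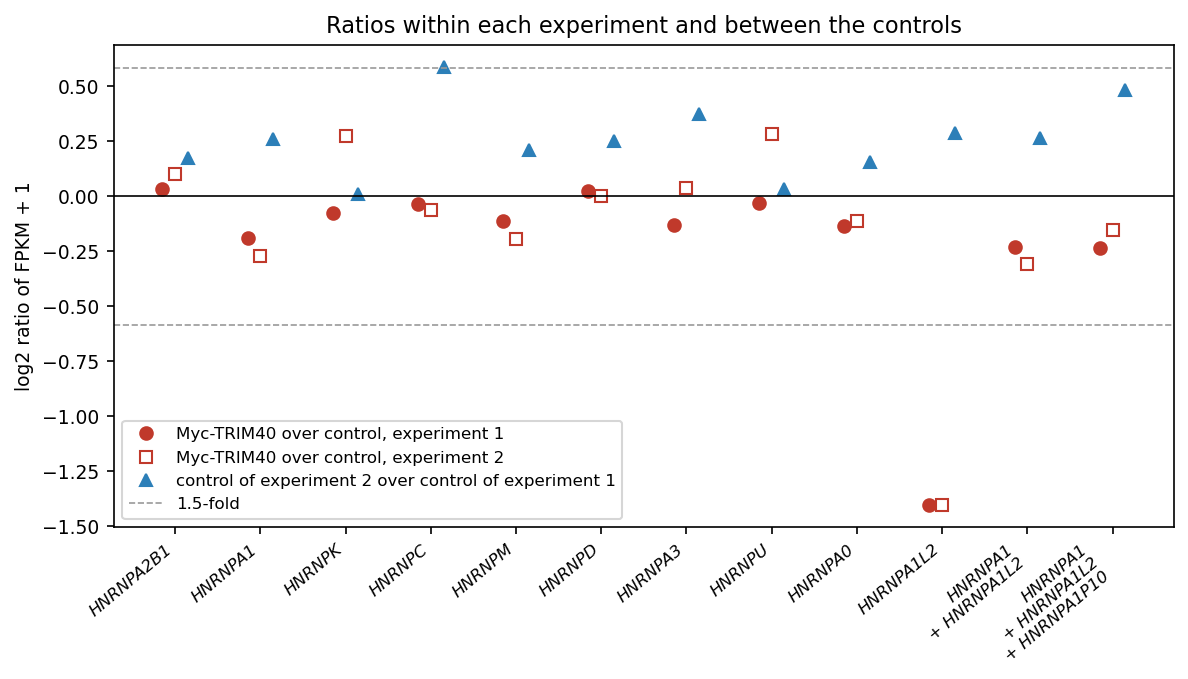
log2 ratios of FPKM + 1 for the 10 HNRNP genes and the 2 sums, with Myc-TRIM40 over control in experiment 1 (filled circles) and experiment 2 (open squares), and the control of experiment 2 over that of experiment 1 (triangles). Dashed lines mark 1.5-fold; HNRNPA1L2 is the only gene of the 10 whose Myc-TRIM40 points are past them, at -1.40 in both experiments, and the HNRNPC triangle lies at the upper line.

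Other protein-coding retrocopies and their parents were set beside this pair. Of 11 other listed pairs, all had at least 100 joint reads in every library, but in 6 the retrocopy had at most 3 reads in each library (NACA2, UBE2NL, PGK2, RPL10L, RPL39L and HNRNPCL1, a retrocopy of HNRNPC). RBMXL1, the retrocopy of the HNRNP gene RBMX, held 8.10% and 8.30% of the joint reads in the control and Myc-TRIM40 libraries of experiment 1 and 6.31% and 7.32% in those of experiment 2. The share of HNRNPA1L2 with Myc-TRIM40 was 0.395 and 0.424 times that of the control, and for RBMXL1 it was 1.02 and 1.16 times. For CSNK2A3, a retrocopy of the casein kinase gene CSNK2A1, these ratios were 1.07 and 2.11, from shares that differed between the controls themselves (1.62% from 205 reads and 0.346% from 28 reads). For GLUD2 of GLUD1 the ratios were 1.13 and 1.06. EIF5AL1 of EIF5A had 0.837 and 0.905 times and PABPC3 of PABPC1 1.38 and 0.817 times the control share, each from less than 0.1% of the joint reads.

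**Figure D3:**
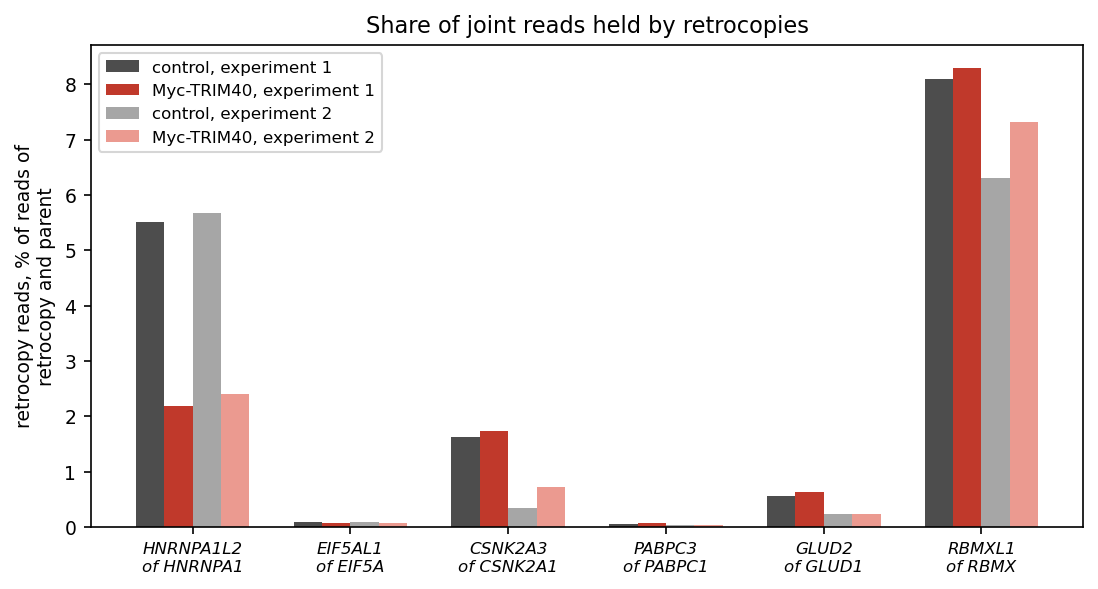
Reads of a retrocopy as a percentage of the reads of the retrocopy and its parent, for the 6 pairs whose retrocopy had at least 20 reads in every library, with 1 bar per library. HNRNPA1L2 goes from 5.51% and 5.68% in the controls to 2.18% and 2.41% with Myc-TRIM40, while RBMXL1 stays between 6.31% and 8.30%.

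The other A/B-type members had Myc-TRIM40 levels near those of the controls. HNRNPA0, an intronless gene for a small A/B-type protein that binds AU-rich mRNA, had 86.8 and 79.0 FPKM in control and Myc-TRIM40 of experiment 1 and 96.7 and 89.3 FPKM in experiment 2. The groups overlapped, and the fitted log2 fold change was -0.21 (SE 0.21, adjusted p = 0.892 by edgeR). HNRNPA2B1, which encodes the A2 and B1 proteins and binds RNA in splicing and transport, had the highest FPKM of the members. That rank leaves the reads listed under HNRNPA1P10 out of HNRNPA1. It had 396.5 and 405.6 FPKM in experiment 1 and 448.0 and 480.6 FPKM in experiment 2, again with overlapping groups. Its fitted log2 fold change was -0.01 (SE 0.17, adjusted p = 0.996 by edgeR). HNRNPA3, an A/B-type protein linked to the cytoplasmic transport of RNA, had 104.6 and 95.6 FPKM in experiment 1 and 135.9 and 139.4 FPKM in experiment 2. The order of control and Myc-TRIM40 differed between experiments, and the fitted log2 fold change was -0.07 (SE 0.19, adjusted p = 0.964 by edgeR).

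The transcripts within HNRNPA2B1 and HNRNPA3 moved differently in the 2 experiments. NM_031243 of HNRNPA2B1 had 18496 reads in control and 13757 with Myc-TRIM40 in experiment 1, but 21659 and 37485 in experiment 2. Its share of the gene's FPKM changed from 20.1% to 14.6% in experiment 1 and from 18.8% to 32.8% in experiment 2. HNRNPA3 showed the largest redistribution of any member, in experiment 1 alone. Its transcript NR_138470 went from 44.0% to 7.23% of the gene's FPKM in experiment 1 and from 42.6% to 49.2% in experiment 2. NM_194247 went from 9.58% to 39.6% in experiment 1 and from 11.5% to 10.2% in experiment 2. The sum over transcripts stayed within 91.4% to 102.6% of control, so the Myc-TRIM40 library of experiment 1 stood apart in the split, not in the total. Reads over shared exons are divided between transcripts by estimation, and 2 microRNA entries of 73 bases overlap HNRNPA3 (MIR4444-1 and MIR4444-2, at most 338 reads).

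**Figure D4:**
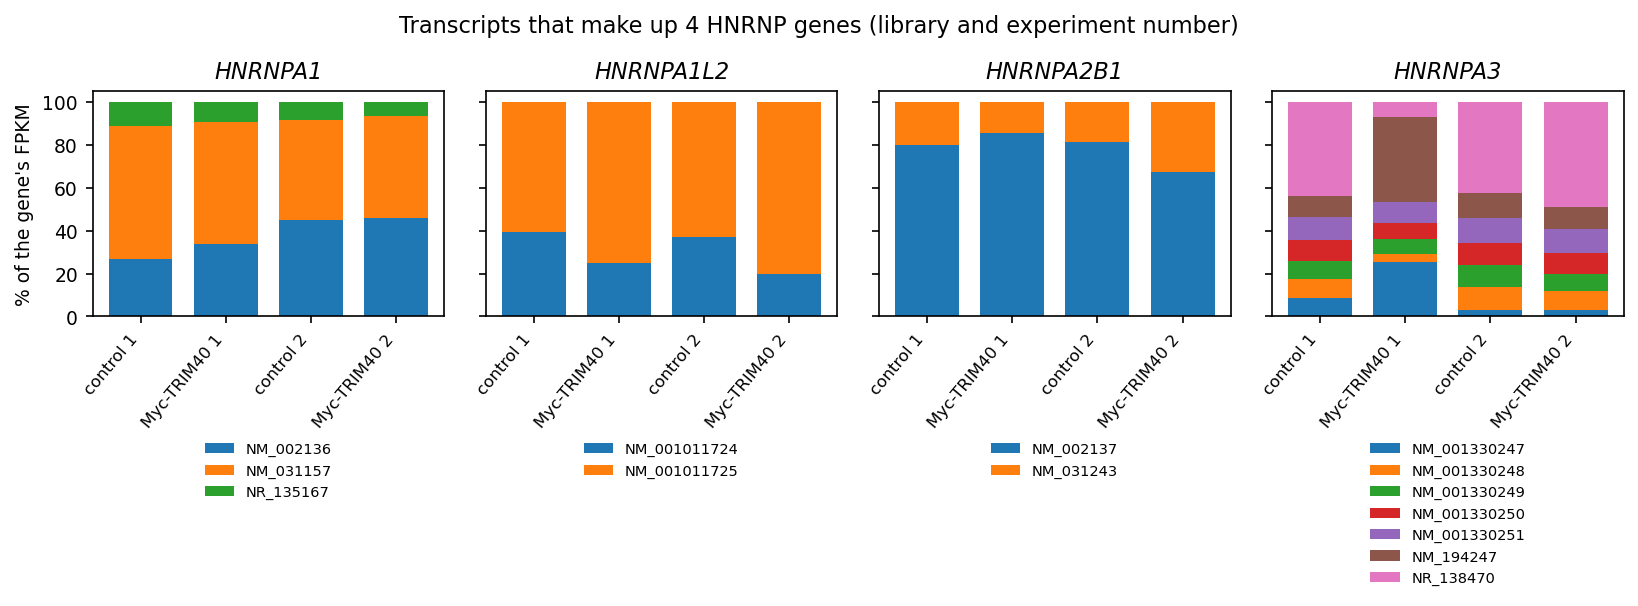
Percentage of each gene's FPKM held by each of its RefSeq transcripts (stacked bars adding to 100%) in the 4 libraries, for HNRNPA1, HNRNPA1L2, HNRNPA2B1 and HNRNPA3. NM_001011724 of HNRNPA1L2 is at 39.5% and 37.2% in the controls and at 25.0% and 19.7% with Myc-TRIM40, and HNRNPA3 differs in the Myc-TRIM40 library of experiment 1, where NR_138470 is at 7.23%.

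HNRNPC, whose protein packages long nascent transcripts and restrains the use of cryptic exons, varied most between the controls. It had 180.6 and 176.6 FPKM in the control and Myc-TRIM40 libraries of experiment 1 and 271.8 and 260.1 FPKM in experiment 2. The controls differed by 0.59 in log2 FPKM + 1, against -0.03 and -0.06 for Myc-TRIM40 over control, and the groups overlapped. HNRNPD, also called AUF1, a protein of AU-rich mRNA turnover, had 158.3 and 160.8 FPKM in experiment 1 and 188.7 and 188.9 FPKM in experiment 2. On FPKM, the Myc-TRIM40 and control levels of HNRNPD differed by less than 2% of control within each experiment. Its log2 ratios were -0.01 and -0.12 on TMM-scaled reads, and 0.05 and 0.24 on TPM + 1. The fitted log2 fold change of HNRNPD was -0.07 (SE 0.20, adjusted p = 0.968 by edgeR). HNRNPM, a splicing regulator, had 166.2 and 153.9 FPKM in experiment 1 and 192.5 and 168.4 FPKM in experiment 2. It was lower with Myc-TRIM40 both times, with overlapping groups and a fitted log2 fold change of -0.23 (SE 0.20, adjusted p = 0.888 by edgeR).

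HNRNPK and HNRNPU had opposite signs in the 2 experiments. HNRNPK, a KH-domain protein that binds C-rich RNA and DNA, had 299.6 and 284.1 FPKM in experiment 1 and 302.1 and 366.1 FPKM in experiment 2. HNRNPU, also known as scaffold attachment factor A, which binds chromatin and RNA, had 108.5 and 106.2 FPKM in experiment 1 and 111.1 and 135.7 FPKM in experiment 2. The Myc-TRIM40 library of experiment 2 was the highest of the 4 for both genes, at 121.2% and 122.1% of its control, and the groups overlapped. The fitted log2 fold changes were 0.02 (SE 0.19) for HNRNPK and 0.05 (SE 0.19) for HNRNPU, and neither passed the test (adjusted p = 0.993 and 0.972, edgeR). HNRNPK overlaps RMI1 in the files, which had between 1195 and 2044 reads.

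Ordered by control level per length, the members ran from HNRNPA2B1 through HNRNPA1, HNRNPK, HNRNPC, HNRNPM, HNRNPD, HNRNPA3, HNRNPU and HNRNPA0 to HNRNPA1L2. The first rank depends on how the HNRNPA1 locus is counted. HNRNPA1 summed with HNRNPA1P10 had a mean control FPKM of 902.7, against 422.3 for HNRNPA2B1 and 360.4 for HNRNPA1 alone. The ranges of the 2 controls overlapped between HNRNPC and HNRNPM, between HNRNPM and HNRNPD, and between HNRNPA3 and HNRNPU. Within each control, HNRNPC lay above HNRNPM and HNRNPM above HNRNPD. HNRNPA3 and HNRNPU changed order between the controls, so their order was not resolved. All 10 genes had a higher FPKM in the control of experiment 2 than in that of experiment 1. The summed FPKM of all genes was also higher there, at 552270 against 457454. On TPM, rescaled to the same sum in every library, the direction differed by gene. The controls of experiments 1 and 2 were at 654.9 and 547.1 TPM for HNRNPK, and at 394.8 and 492.1 TPM for HNRNPC. For 6 of the 9 members other than HNRNPA1L2, the difference between controls in log2 FPKM + 1 was larger than both differences between Myc-TRIM40 and control. Of these 9, 4 were lower with Myc-TRIM40 in both experiments, 2 were higher in both and 3 had opposite signs, on the scale of log2 FPKM + 1. The split depended on the scale. In the edgeR fit on TMM-scaled reads, 7 of the 9 had a log2 fold change below 0 and 2 above 0. The median over all genes tested was 0.04 in that fit.

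In the test over all 14868 genes that passed the filter on low counts, 6 genes rose (0.0404%) and 3 fell (0.0202%) at an adjusted p under 0.05 in edgeR. All 10 members passed the filter, and of the 9 other than HNRNPA1L2, 0 were among them. At an unadjusted p under 0.05, 507 genes (3.41%) had a higher and 168 (1.13%) a lower value, with 0 of these 9 members among them. DESeq2 called 45 genes higher (0.303%) and 9 lower (0.0605%), with 0 of the 9 among them. On log2 FPKM + 1, limma called 3 genes higher (0.0202%) and 0 lower (0.00%), again with 0 of the 9. By the ratio of FPKM + 1 of at least 1.5 in both experiments, 72 of 27685 genes were higher (0.260%) and 14 were lower (0.0506%). Of the 10 members, 0 were higher and 1 was lower, HNRNPA1L2, which was chosen by this rule. The 27685 include genes without reads, which cannot pass this rule. Only 18561 had any reads, and 11801 had a mean of at least 1 FPKM, as all 10 members did. The median fitted log2 fold change was -0.10 over the 10 members and -0.07 over the 9 without HNRNPA1L2, beside 0.04 over all genes tested. On TPM, which rescales every library to the same sum, the median of the 10 was 0.09, while the medians over all expressed genes on that scale were 0.04 and 0.33 in experiments 1 and 2. Relative to the median of expressed genes on FPKM + 1, it was -0.11.

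The scale mattered more in experiment 2, where the summed FPKM was 552270 in the control and 469117 in the Myc-TRIM40 library. Over 11801 genes with a mean of at least 1 FPKM, the median log2 ratio was 0.01 in experiment 1 and 0.10 in experiment 2 on FPKM + 1, and 0.04 and 0.33 on TPM + 1. Relative to the FPKM + 1 medians, the log2 ratios were -1.41 and -1.51 for HNRNPA1L2 and -0.20 and -0.37 for HNRNPA1. On TPM + 1 they were -1.46 and -1.24 for HNRNPA1L2 and -0.16 and -0.04 for HNRNPA1.

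Further HNRNP genes and the SR proteins, the other large class of pre-mRNA binding splicing regulators, were examined in the same fit. Of 19 further HNRNP genes 18 were tested, and 0 rose or fell in edgeR, at an adjusted or an unadjusted p under 0.05. DESeq2 and limma also called 0. Their median log2 fold change was -0.05 in edgeR and 0.03 in limma, between edgeR values of -0.23 for RALY, a relative of HNRNPC, and 0.13 for HNRNPLL, a regulator of CD45 splicing. Of 14 SR protein genes 13 were tested, with 0 called by any of the 3 tools, 0 at an unadjusted p under 0.05 and a median log2 fold change of -0.13. SRSF9 was the lowest at -0.32 and SRSF1 the highest at 0.57 (SE 0.33), and HNRNPCL1 and SRSF12 were listed at 0 reads in all libraries. None of the 2 lists held a gene past 1.5-fold in the same direction in both experiments. SRSF1, a founding SR protein, was past 1.5-fold in experiment 2 alone, with a log2 ratio of FPKM + 1 of 1.35 against -0.12 in experiment 1. HNRNPR, named after its values were seen, was past 1.5-fold in opposite directions, with log2 ratios of FPKM + 1 of -0.69 and 0.60.

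**Figure D5:**
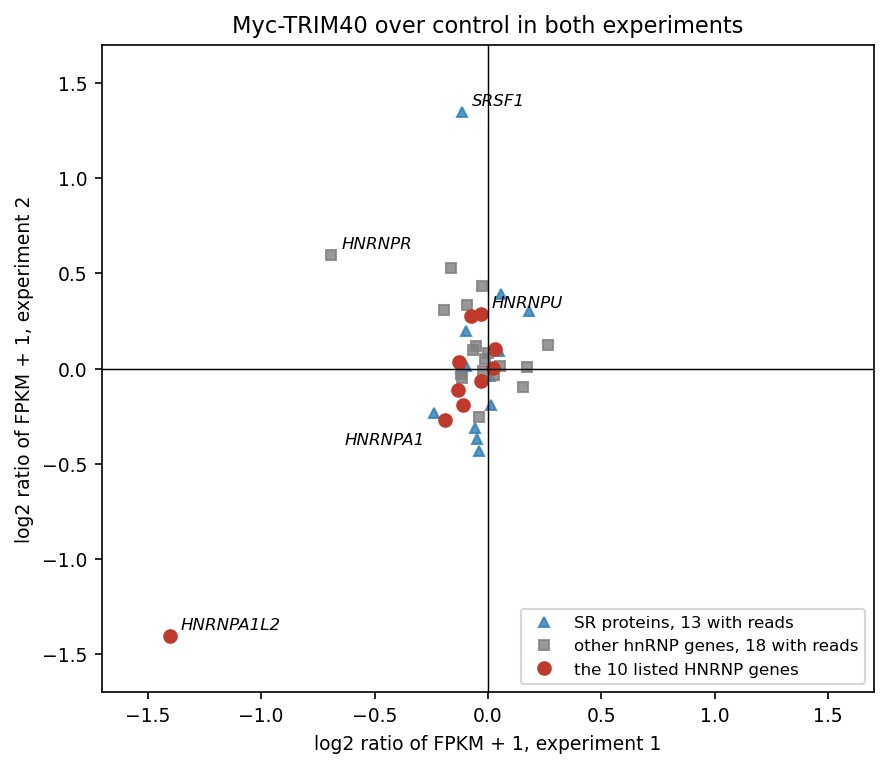
log2 ratio of FPKM + 1 for Myc-TRIM40 over control, experiment 1 on the horizontal and experiment 2 on the vertical axis, with the 10 listed HNRNP genes as red circles, 18 other HNRNP genes with reads as grey squares and 13 SR protein genes with reads as blue triangles. HNRNPA1L2, at -1.40 on both axes, lies apart from the other members, while SRSF1 is far from 0 on the vertical axis alone and HNRNPR has opposite signs.

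The genes whose log2 FPKM + 1 over the 4 libraries, centred on each gene's own mean, lay nearest to that of HNRNPA1L2 were sought among genes with a mean of at least 1 FPKM. In order of Euclidean distance they were GPATCH4 (0.177), C15orf57 (0.225), LSM4 (0.431), LDAH (0.471) and RPL17-C18orf32 (0.687). GPATCH4, which encodes a G-patch domain protein, had 44.1 and 15.4 FPKM in the control and Myc-TRIM40 libraries of experiment 1 and 46.2 and 17.4 FPKM in experiment 2. LSM4, a subunit of the Sm-like ring that binds U6 small nuclear RNA, had 100.1 and 46.2 FPKM in experiment 1 and 186.3 and 53.3 FPKM in experiment 2. None of the 5 was on the HNRNP or SR lists, and each distance rests on 4 libraries.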

How the data were processed

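RNA-seq of HT-29 cells was analysed from 4 libraries, control and Myc-TRIM40, in 2 experiments numbered as in the deposited files. For each RefSeq transcript, the authors deposited an estimated count (whole numbers, not normalized) and FPKM, which divides the count by transcript length and library total. TPM, which rescales FPKM to 1 sum in every library, was deposited for experiment 2 and computed here from the deposited FPKM for experiment 1. Deposited transcript positions and lengths were used as given. The submitters' processing notes name HISAT2 2.1.0, StringTie 1.3.4d and hg19; the filters and the handling of multi-mapped reads are not given in the sources used here. The paper gives a TruSeq stranded mRNA kit.

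Transcripts were summed per gene identifier. Counts of the 14868 genes that passed filterByExpr were scaled by TMM and fitted with the quasi-likelihood model of edgeR 4.0.16 in R 4.3.3, with experiment as a block. P-values were adjusted over all 14868 genes (Benjamini-Hochberg), at a common dispersion of 0.0484 and with 1 residual degree of freedom. The SE beside an edgeR fold change is its absolute log2 value divided by the square root of the quasi-likelihood F statistic. The pairing follows the replicate numbers of the labels, and each file holds 1 library per condition. The deviations of paired libraries from their group means correlated at 0.449 over genes, a value that is necessarily the same for both pairs. The independence of cultures rests on the paper. The edgeR p-values measure how far the Myc-TRIM40 difference varied between the 2 experiments, since the block takes up differences between the controls. That spread is mostly pooled over genes, with a median of 7.44 prior degrees of freedom. Fold calls used ratios of FPKM + 1, which understate the change of low genes. Coding sequences came from GENCODE release 29, whose build differs from that of the files, so no coordinates were taken from it; transcripts were matched by RefSeq name, for 10 of 10 members. The fit was tested on simulated data. DESeq2 1.42.0, limma 3.58.1, Python 3.11.15, pandas 2.3.3, scipy 1.17.1 and Biopython 1.88 were also used.

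The members and lists were chosen with earlier results of these data known. The genes named were the 10 members, TRIM40, the list genes changed 1.5-fold the same way in both experiments with the highest and lowest of each list, the retrocopy pairs with at least 100 joint reads, and the 5 genes nearest in pattern to HNRNPA1L2; HNRNPA1P10 and HNRNPR were added after their values were seen. Alternatives were no block, DESeq2, upper-quartile normalization, no filter, limma, pseudocounts, TPM, median centring, a threshold of 2 and each experiment left out. Some results that these rules cover are left out of the text.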

Additional observations from a re-analysis of the deposited data

How the results depend on the processing

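HNRNPA1L2 kept its direction in all 11 alternatives. Its log2 fold change moved from -1.64 to -1.40 in limma and in the mean ratio of FPKM + 1, to -1.53 with a pseudocount of 0.1, to -1.35 on TPM + 1 and to -1.46 after median centring, and ranged from -1.68 to -1.61 with 1 experiment left out. Its mean share of the joint reads was 5.59% in control and 2.29% with Myc-TRIM40, 4.51% and 1.86% in FPKM, and 2.74% and 1.07% with HNRNPA1P10 included. HNRNPA1L2 was the only member past the fold threshold under all 6 alternatives to that rule, by which it had been chosen in these same libraries. HNRNPA1 stayed below 0 in all 11, and its sum with HNRNPA1L2 moved to -0.14 on TPM + 1. With HNRNPA1P10 added, the sum moved from -0.29 to -0.19 in limma and to -0.06 on TPM + 1, where experiment 2 was at 0.08.

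Without the replicate block, that is, without the pairing by experiment, edgeR called 0 genes higher and 0 lower in place of 6 and 3. DESeq2 called 45 higher and 9 lower, the fit with no filter 0 and 0, and limma 3 and 0. The block changed no call among the 9 members other than HNRNPA1L2.

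The median of the 10 members was -0.0468 in limma and on FPKM + 1, -0.0471 on FPKM + 0.1, 0.0861 on TPM + 1, and -0.15 without experiment 1, against -0.10 with both. The median log2 ratio over expressed genes was 0.04 in experiment 1 and 0.33 in experiment 2 on TPM + 1, against 0.01 and 0.10 on FPKM + 1. On TPM + 1 the members that changed sign were at 0.0084 for HNRNPA0, 0.20 for HNRNPA2B1, 0.0869 for HNRNPA3, 0.0853 for HNRNPC and 0.15 for HNRNPD. After median centring of FPKM + 1, HNRNPA0 (-0.18), HNRNPA3 (-0.10), HNRNPC (-0.11) and HNRNPD (-0.05) were below 0, and the median of the 10 was -0.11. In limma and on FPKM + 1 the values were 0.0668 for HNRNPA2B1 and 0.0119 for HNRNPD, on FPKM + 0.1 they were 0.0669 and 0.0120, and HNRNPA2B1 was 0.0084 after median centring. HNRNPK was -0.0042 in DESeq2 and from -0.11 to 0.15 with 1 experiment left out, and HNRNPU was from -0.0665 to 0.16, negative without experiment 2 for both genes. The cause was not tested. The number of experiments, 2, limits every fold change. Reads shared among HNRNPA1, HNRNPA1L2 and HNRNPA1P10, or with genes such as HNRNPA1P48, limit their separate values.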
